A study of Mus musculus with 4 samples.

Results

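The actomyosin and myofibroblast genes are the 10 protein-coding genes Acta2, Tagln, Cnn1, Myl9, Tpm1, Tpm2, Actn1, Vcl, Srf and Myocd, of 21887 protein-coding genes placed on the mouse genome. They were listed by name, with no measured value in the rule. Chromatin accessibility was measured by ATAC-seq, in which the Tn5 transposase cuts and tags open DNA, in chondrocytes from knee cartilage of C57BL/6 mice at postnatal days 0 to 4. Every sample was grown in DMEM/F12 medium with 10% fetal bovine serum. P0 cells had been in culture for less than a day, P8 cells had been passaged 8 times with a doubling of the cell number at each passage, and each passage had 2 libraries. The comparison of P8 with P0 asks how chromatin differs once chondrocytes have lost their cartilage character in culture. All peaks in or within 50 kb of the 10 genes were taken, and peaks of the 4 libraries that overlapped by at least 1 bp were merged into sites. This gave 221 sites of 170558 in the genome. For 96 of the 221 one of the 10 genes was the nearest protein-coding gene, and the other 125 lay nearer to 1 of 30 neighbouring genes.

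Smooth muscle actin, the myosin light chains, calponin and tropomyosin build the contractile stress fibres that myofibroblasts carry and that resting chondrocytes in cartilage mostly lack. Alpha-actinin crosslinks these fibres and vinculin ties them to focal adhesions. Most of these genes are textbook targets of serum response factor (SRF), which binds the CArG box. It activates them with the cofactor myocardin (Myocd) or the related cofactors Mrtfa and Mrtfb, and the latter enter the nucleus when actin polymerizes.

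The promoters of 8 of the 10 genes were found in the RefSeq table of GRCm38.p6, all but those of Tagln and Myocd. The stretch searched ran from 250 bases before to 50 bases after the start. A CArG box (CC, then 6 bases that are each A or T, then GG, read on both strands) was found in 3 of the 8, those of Myl9, Vcl and Srf, beside 1.54% of 17492 promoters of the same length. Srf held 2 of them. The 250 bases before the start are shown for these 3 genes with the CArG box in capitals, and for Acta2, the defining gene of myofibroblasts, with the TEAD letters in capitals. They lie on the minus strand at chr17:46556163-46556412 for Srf, on the plus strand at chr14:20929148-20929397 for Vcl, on the plus strand at chr2:156775214-156775463 for Myl9 and on the minus strand at chr19:34255374-34255623 for Acta2, each written 5′ to 3′ along the gene.
Srf: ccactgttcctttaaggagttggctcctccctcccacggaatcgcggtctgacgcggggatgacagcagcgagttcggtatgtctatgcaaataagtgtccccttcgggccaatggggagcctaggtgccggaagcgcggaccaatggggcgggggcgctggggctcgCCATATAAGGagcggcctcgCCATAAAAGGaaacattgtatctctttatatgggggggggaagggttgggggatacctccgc
Vcl: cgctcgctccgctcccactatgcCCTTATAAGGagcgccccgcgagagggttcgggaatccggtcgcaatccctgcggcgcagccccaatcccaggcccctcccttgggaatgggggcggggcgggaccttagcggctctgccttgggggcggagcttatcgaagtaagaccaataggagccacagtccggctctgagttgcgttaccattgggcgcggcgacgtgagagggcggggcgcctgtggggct
Myl9: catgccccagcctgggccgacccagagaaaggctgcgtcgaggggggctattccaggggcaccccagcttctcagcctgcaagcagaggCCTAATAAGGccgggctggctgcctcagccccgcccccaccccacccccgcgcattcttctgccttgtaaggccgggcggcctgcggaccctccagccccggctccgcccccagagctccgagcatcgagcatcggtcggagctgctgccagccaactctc
Acta2: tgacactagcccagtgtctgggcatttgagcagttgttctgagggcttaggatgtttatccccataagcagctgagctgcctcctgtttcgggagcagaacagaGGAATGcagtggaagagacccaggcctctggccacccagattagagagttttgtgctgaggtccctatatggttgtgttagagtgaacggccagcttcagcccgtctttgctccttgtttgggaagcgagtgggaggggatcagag
The TEAD letters CATTCC, or GGAATG on the other strand, stood in the promoters of Acta2, Tpm1 and Vcl, beside 13.4% of all promoters, and every motif was read on both strands. GGGCGG, the Sp1 letters, stood in 6 of the 8 promoters, all but those of Acta2 and Cnn1, beside 46.3% of all. TATAAA stood in that of Srf alone, beside 13.3% of all, and neither TGANTCA (AP-1, 7.08% of all) nor TGTGGT (RUNX, 15.1% of all) was in any of the 8. None of these motifs shares its letters with a CArG box match shown here. A match describes the letters and does not show that a factor was bound. Only exact matches were counted, and near matches were not searched for. The Acta2 sequence above holds ccctatatgg and ccttgtttgg, which each differ from the CArG pattern by a single base and were not counted. The promoters of Acta2 and Cnn1 were the poorest of the 8 in CpG, with an observed over expected ratio of 0.27 and 0.239, against 0.546 to 0.902 in the other 6 and a median of 0.576 over all promoters.

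The libraries could be told apart by the names of their peaks but not matched to a replicate number, so each passage has a library A and a library B. Depth was read from the background of the peak caller, which counted 194 (A) and 162 (B) tags per 10 kb at P0, and 140 (A) and 134 (B) at P8. Both P8 libraries were thus shallower than both P0 libraries, and they held 88578 and 98647 peaks against 144356 and 118849 at P0. Nothing in the labels says whether the 2 libraries of a passage came from separate litters or cultures, so every p-value measures the spread between these libraries only. In bulk chromatin, fewer cells with an open site and a site less open in each cell cannot be told apart. Of 7 chondrocyte markers, 7 had a peak within 1 kb of the start in both P0 libraries and 6 in both P8 libraries, Col2a1, Acan and Sox9 among those open in all 4 libraries. Of 6 fibroblast markers 6 were open in each P0 library, and 5 and 4 in the P8 libraries. Of 5 smooth muscle markers 5 were open in each P0 library and 3 in each P8 library, those without a P8 peak being Actg2 and Des. Among skeletal muscle markers only Myod1 had a peak, and Myf5, Myog, Ckm and Acta1 had none in any library. For endothelium 2 of 5 (Kdr and Tek), and for blood 2 of 5 at P0 and 1 of 5 at P8, had one. A peak at a start says that the promoter is open and not that the gene is transcribed, and the part of other cell types in the values that follow was not tested.

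All 8 genes with a promoter entry had a peak within 1 kb of the start in each of the 4 libraries, beside 59.8% of the genes of the promoter table. The strand of Tagln and Myocd was not known, so a peak at either gene end was counted, and both had one in each library at the end with the higher coordinate, which stands for their start in what follows. The start site of a gene is the site that covers its start. The height of a peak is its fold enrichment, the number of tags piled up at its summit plus 1 over the local background of the same library plus 1.

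**Figure D1:**
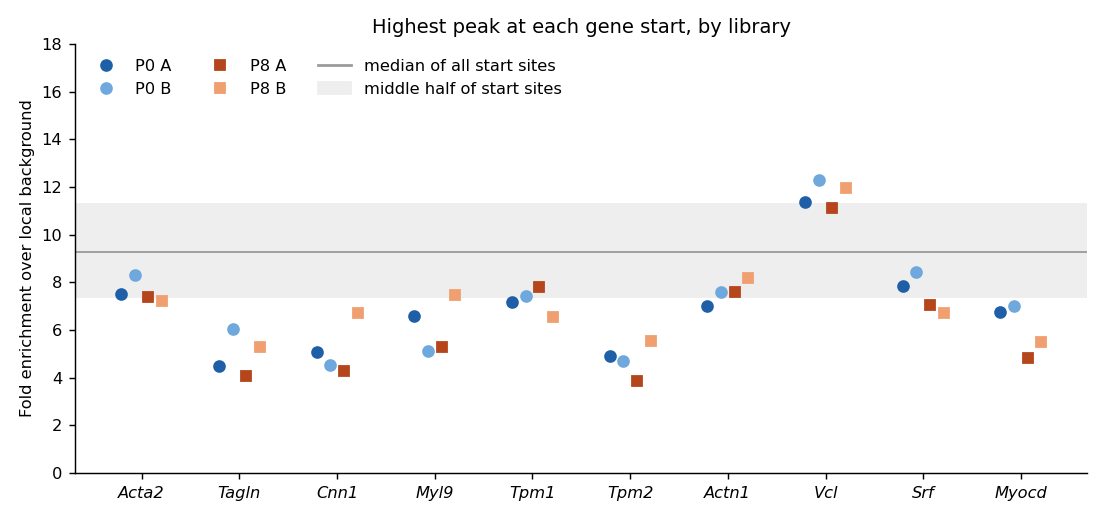
Fold enrichment over local background (vertical axis) of the highest peak at the start of each of the 10 genes, 1 point per library, with circles for P0 and squares for P8. The line is the median of the mean fold enrichment over 9422 start sites open in all 4 libraries (9.28) and the grey band runs from 7.39 to 11.3, its quartiles. Vcl stands above the line in all 4 libraries and the other 9 genes below it.

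Among the contractile genes, Acta2 (alpha smooth muscle actin) had a start peak of 7.51-fold and 8.29-fold at P0 and 7.38-fold and 7.23-fold at P8. The 4 values lay close together, with both P8 libraries just below both P0 libraries. Tagln (transgelin, an actin-binding protein of smooth muscle) had 4.47-fold and 6.04-fold at P0 and 4.05-fold and 5.28-fold at P8. Cnn1 (calponin, which restrains myosin activity on actin) had 5.08-fold and 4.53-fold at P0 and 4.26-fold and 6.71-fold at P8, and P8 library B was the highest of the 4. Myl9 (the regulatory light chain of smooth muscle and non-muscle myosin II) had 6.57-fold and 5.13-fold at P0 and 5.28-fold and 7.46-fold at P8. For Tagln, Cnn1 and Myl9 the ranges of P0 and P8 overlapped. Ranked by mean fold enrichment among all start sites open in the 4 libraries, Tagln stood at the 3.85 percentile, Cnn1 at 4.81, Myl9 at 11.7 and Acta2 at 27.4, so the contractile genes had low peaks at open promoters. The ranges of Tagln and Cnn1 overlapped each other, as did those of Cnn1 and Myl9 and of Myl9 and Acta2.

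The tropomyosins lie along the actin filament and set its access to myosin. The start of Tpm1 gave 7.19-fold and 7.41-fold at P0 and 7.81-fold and 6.54-fold at P8. That of Tpm2 ranked lowest of the 10, at the 2.93 percentile, with 4.89-fold and 4.70-fold at P0 and 3.85-fold and 5.52-fold at P8. In both genes the P8 libraries lay on either side of the P0 libraries. Tpm1 stood at the 23.3 percentile of start sites. The start of Actn1 (alpha-actinin) was the broadest, a site of 1787 bp with 7.02-fold and 7.58-fold at P0 and 7.59-fold and 8.16-fold at P8, at the 27.3 percentile. It was the only start of the 10 where both P8 libraries exceeded both P0 libraries, beside 11.6% of all sites open in the 4 libraries. The margin was small, 7.59-fold against 7.58-fold. Vcl (vinculin) had the highest start, with 11.4-fold and 12.3-fold at P0 and 11.1-fold and 12.0-fold at P8, at the 79.4 percentile of all start sites.

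The start of Srf, the transcription factor itself, gave 7.86-fold and 8.41-fold at P0 and 7.04-fold and 6.71-fold at P8, at the 26.3 percentile. The summit of its peak lay 62 bp and 1 bp from the nearer of its 2 CArG boxes in the P0 libraries and 102 bp and 16 bp from it in the P8 libraries. At Myocd, the master cofactor of smooth muscle genes, the site gave 6.74-fold and 6.99-fold at P0 and 4.81-fold and 5.50-fold at P8, at the 10.9 percentile. For Srf and Myocd, as for Acta2, each P8 library was below each P0 library, beside 49.9% of all sites open in the 4 libraries. At Myl9 the CArG box lay 18 bp and 83 bp from the summit in the P0 libraries and 254 bp and 99 bp at P8, and at Vcl it lay 45 bp and 79 bp away at P0 and 100 bp and 34 bp at P8. All CArG boxes found were inside the start sites.

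To compare heights between passages, log2 fold enrichment was centred on the median of each library and fitted with limma over all 55294 sites that had a peak in all 4 libraries, with Benjamini-Hochberg adjustment over all of them. None of the 10 sites that cover a start passed an adjusted p of 0.05, and 0 of the 10 had an unadjusted p under 0.05. The lowest adjusted p of the 10 was 0.194, that of Actn1, with a log2 difference of P8 minus P0 of 0.38 (SE 0.18). Their median difference was 0.23 on the log2 scale, beside 0.07 over all sites tested. Before centring, the median difference over all sites was -0.20, and every difference is given relative to the library median. Fitted on the centred pileup instead, the start sites of Acta2 (log2 difference 0.59, adjusted p = 0.00611) and Tagln (0.63, adjusted p = 0.0253) passed as higher at P8, but the direction turned with the scaling. The deposited pileups were 33 and 28 tags at P0 and 29 and 30 at P8 for Acta2, and 20 and 21 at P0 and 18 and 23 at P8 for Tagln, with overlapping ranges. Without centring the differences in fold enrichment were -0.11 and -0.17, and neither passed.

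Of the sites that do not cover a start, 3 with one of the 10 genes as nearest gene passed the limma test, 1 inside Myocd, 1 within 1 kb of the start of Tpm2 and 1 beyond the end of Tpm1. Of the 96 sites nearest to the 10 genes 38 could be tested, starts included, since the others lacked a peak in some library. Among the 38, 1 was lower at P8, beside 3.76% of all sites tested, and 2 were higher, beside 6.23%. At an unadjusted p under 0.05 the number was 3 lower beside 9.76% and 6 higher beside 16.7%. The median difference of the 38 was 0.15 and that of all sites 0.07.

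The site with the largest difference lay inside Myocd, at chr11:65246553-65247008, 22981 bp from the nearer gene end. It had 5.80-fold and 7.78-fold enrichment at P0 and 9.68-fold and 11.0-fold at P8, so both P8 libraries stood above both P0 libraries. The log2 difference was 0.89 (SE 0.19, adjusted p = 0.00847), or 1.85-fold. Pileups, which are not scaled for depth, were 13 and 16 tags at P0 and 19 and 22 tags at P8, so the P8 pileups were the higher ones although the P8 libraries were the shallower. Without P0 library A the adjusted p was 0.102 and without centring it was 0.0582.

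Beyond the end of Tpm1, at chr9:67008364-67009088 and 40125 bp from the start, peaks were 11.0-fold and 13.3-fold enriched at P0, and 5.62-fold and 7.07-fold enriched at P8. This was the highest by its mean of the sites nearest to Tpm1, and both P8 libraries were well below both P0 libraries. The log2 difference was -0.67 (SE 0.18, adjusted p = 0.0243). Without P0 library A the adjusted p was 0.0618, without P0 library B it was 0.308, and on the pileup it was 0.0637. A second site on that side of the gene, at chr9:67019796-67020401, gave 7.22-fold and 7.56-fold at P0 and 3.58-fold and 4.76-fold at P8 and did not pass (log2 difference -0.57, SE 0.20, adjusted p = 0.0782). It passed without centring, with an adjusted p of 0.0272, and on the centred pileup its difference was 0.0081 (adjusted p = 0.984).

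At Tpm2 the site at chr4:43524109-43524460, 555 bp before the start, had 4.05-fold and 3.95-fold at P0 and 5.14-fold and 5.29-fold at P8. The log2 difference was 0.65 (SE 0.19, adjusted p = 0.034). A neighbour at chr4:43522106-43522559, 995 bp inside the gene, had 4.66-fold and 4.31-fold at P0 and 5.80-fold and 5.61-fold at P8 and lay just outside the threshold (log2 difference 0.62, SE 0.20, adjusted p = 0.052). In fold enrichment both P8 libraries lay above both P0 libraries at these 2 sites, and at the start between them they did not. The pileups overlapped, with 29 and 20 tags at P0 and 26 and 28 at P8 for the first site, and 33 and 22 against 29 and 29 for its neighbour. On the centred pileup both passed as higher at P8 (adjusted p = 0.00114 and 0.00157). The call on fold enrichment at the first site did not hold without centring (adjusted p = 0.148) or with quantile normalization (0.138). Nor did it hold without P0 library A, P0 library B or P8 library A, where the log2 differences were 0.66, 0.65 and 0.60.

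**Figure D2:**
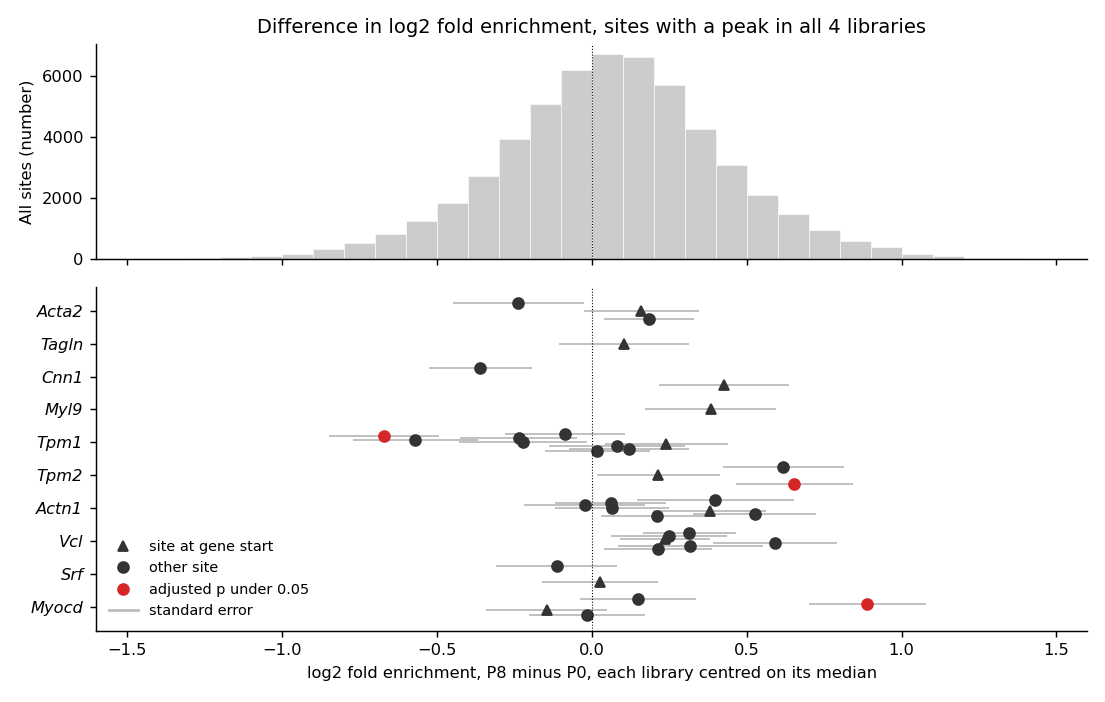
Difference in log2 fold enrichment, P8 minus P0, each library centred on its median (horizontal axis), as a histogram of all 55294 sites (top) and for the 38 sites of the 10 genes (bottom), triangles marking sites at a gene start and lines the standard error. The 3 sites past an adjusted p of 0.05 are red, at -0.67 for Tpm1, 0.65 for Tpm2 and 0.89 for Myocd.

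Ranked by mean fold enrichment among the sites nearest to it, the highest site of a gene was often not its start. Acta2 had its highest site 10194 bp before the start, at chr19:34265567-34266154, with 12.0-fold and 14-fold at P0 and 12.1-fold and 12.3-fold at P8. The P8 values lay within the range of P0, and the difference did not pass (log2 difference 0.19, SE 0.14, adjusted p = 0.442). For Cnn1 the highest site lay 2863 bp before the start, at chr9:22095936-22096390, with 11.3-fold and 11.1-fold at P0 and 6.78-fold and 7.74-fold at P8. Both P8 libraries were lower there in fold enrichment, and in tags (44 and 33 at P0, 19 and 23 at P8), which are not scaled for depth. The centred difference did not pass (log2 difference -0.36, SE 0.17, adjusted p = 0.173), nor did that on the centred pileup (-0.23, adjusted p = 0.333). Without centring the difference in fold enrichment passed (adjusted p = 0.0331). The highest site of Actn1 lay 31272 bp before the start, at chr12:80291635-80292388, and ranged only from 7.65-fold to 8.35-fold over the 4 libraries. The adjoining site at chr12:80290996-80291632 gave 7.76-fold and 6.11-fold at P0 and 8.88-fold and 7.61-fold at P8, with overlapping ranges. It did not pass (log2 difference 0.53, SE 0.20, adjusted p = 0.0981), but on the centred pileup it passed as higher at P8 (0.78, adjusted p = 0.00599). Inside Myocd the site at chr11:65215087-65215771 gave 10.8-fold and 8.24-fold at P0 and 9.39-fold and 8.03-fold at P8, with overlapping ranges. For Tagln, Vcl and Srf the highest of these sites was the one at the start. Sites nearer to another gene were not ranked, and some of those were higher. The site at chr17:46545967-46546637, nearest to Cul9 and 9525 bp from the Srf start, had a mean of 7.62-fold against 7.50-fold at that start. It was called lower at P8 (log2 difference -0.74, SE 0.20, adjusted p = 0.0258 by limma). A site nearest to Sidt2, 725 bp from the Tagln start, had a mean of 5.53-fold against 4.96-fold.

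The libraries of a site also differ in whether a peak was called at all. Of the 96 sites nearest to the 10 genes, 38 (39.6%) had a peak in all 4 libraries, 16 (16.7%) had one in both P0 libraries and in no P8 library, and 2 (2.08%) had one in both P8 libraries and in no P0 library. Over all sites the shares were 32.4%, 17.1% and 1.82%, so the share called at P0 only was close to that of the genome. A further 20 sites had a peak in 1 P0 library only, 4 in 1 P8 library only, and 16 in other mixtures, beside 23.2%, 9.84% and 15.6% of all sites. Within the full 50 kb windows 83 of 221 sites were open in all 4 libraries, 37 in both P0 libraries only and 2 in both P8 libraries only. The 37 became 79 without P0 library B, and the 2 became 5 without P0 library A or P8 library A and 9 without P8 library B.

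**Figure D3:**
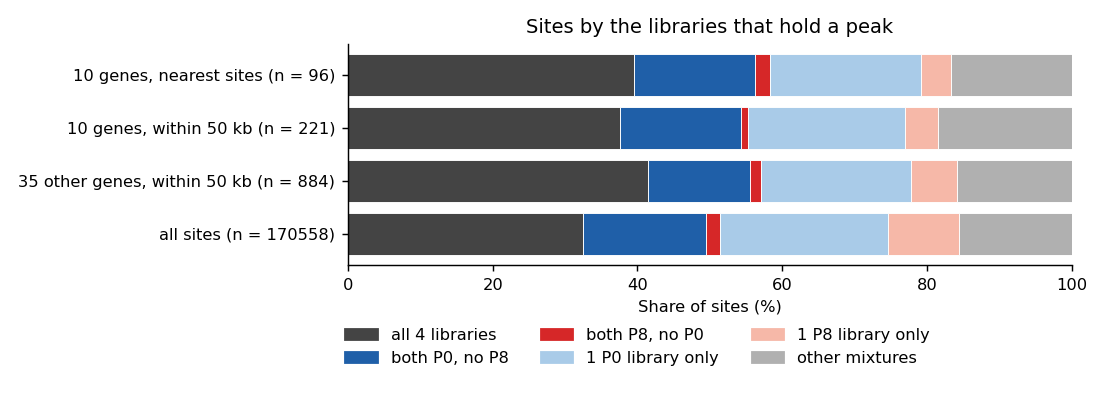
Share of sites (horizontal axis, in percent) by the libraries that hold a peak, for the 96 sites nearest to the 10 genes, the 221 sites within 50 kb of them, the 884 sites within 50 kb of 35 other actomyosin genes, and all 170558 sites. Sites open in both P0 libraries only make up 14.1 to 17.1% of each bar and those of both P8 libraries only 0.905 to 2.08%, while sites of all 4 libraries run from 32.4% (all sites) to 41.4% (the 35 other genes) and those of 1 P8 library only from 4.17 to 9.84%.

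Both sites called at P8 only lay inside a gene. In Vcl it was chr14:21004297-21004469, 74899 bp past the start, with 5.93-fold and 4.04-fold at P8 from 11 and 7 tags. In Myocd it was chr11:65191053-65191260, 17445 bp from the nearer gene end, with 6.43-fold and 6.57-fold from 12 and 12 tags. These pileups are low, and a height under the calling threshold in the P0 libraries is not listed, so an absent peak does not show that a site was closed.

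The 16 sites open at P0 only fell to 8 genes. They were 4 of the 15 sites nearest to Vcl, 4 of 14 for Myocd and 3 of 28 for Actn1. Acta2, Myl9, Cnn1, Tpm1 and Tpm2 had 1 each, of 5, 3, 3, 18 and 4 sites. Of the 16, 13 lay inside the gene, beside 60 of the 96 sites nearest to the 10 genes, and the share inside genes over all sites was not counted. The highest of the 16 was outside Myocd, at chr11:65300773-65301217 and 30784 bp from the nearer gene end, with 9.52-fold and 6.41-fold at P0. Inside Myocd, chr11:65220439-65220711 had 6.62-fold and 5.95-fold, chr11:65226904-65227118 had 4.55-fold and 5.49-fold and chr11:65268382-65268637 had 4.72-fold and 4.66-fold. Myocd thus held sites of each kind within one gene, those called at P0 only, one called at P8 only and one that was higher at P8.

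In Vcl the sites called at P0 only were chr14:21025904-21026090 (6.85-fold and 6.67-fold) and the adjoining chr14:21026196-21026487 (5.25-fold and 4.38-fold), both near the far end of the gene, chr14:20985585-20985745 (5.38-fold and 5.03-fold) and chr14:20929871-20930171 (4.11-fold and 3.52-fold), 473 bp past the start. For Myl9 and Tpm2 the highest of the sites nearest to the gene, by its mean over the libraries with a peak, was itself of this kind. That mean rests on the P0 libraries alone, since libraries without a peak have no value. The highest single values lay elsewhere, at the start of Myl9 (7.46-fold in P8 library B) and at chr4:43522106-43522559 in Tpm2 (5.80-fold in P8 library A). It was chr2:156777479-156777850 in Myl9, 2015 bp past the start, with 6.53-fold and 7.13-fold from 29 and 24 tags, and chr4:43514405-43514950 in Tpm2, 8604 bp past the start, with 5.06-fold and 5.41-fold from 16 and 14 tags. The Myl9 site was about as high at P0 as its promoter, and no peak was called there in either P8 library.

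The remaining ones were small. Acta2 had a site 1974 bp before its start (4.17-fold and 4.34-fold), Cnn1 one 1680 bp past its start (2.96-fold and 4.79-fold) and Tpm1 one 4021 bp past its start (3.31-fold and 3.12-fold). Actn1 had sites 13023 bp past the start (4.93-fold and 3.70-fold), 1426 bp past the start (2.37-fold and 2.99-fold) and 17801 bp before it (4.97-fold and 3.66-fold). Tagln and Srf had no site of either kind among those nearest to them.

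**Figure D4:**
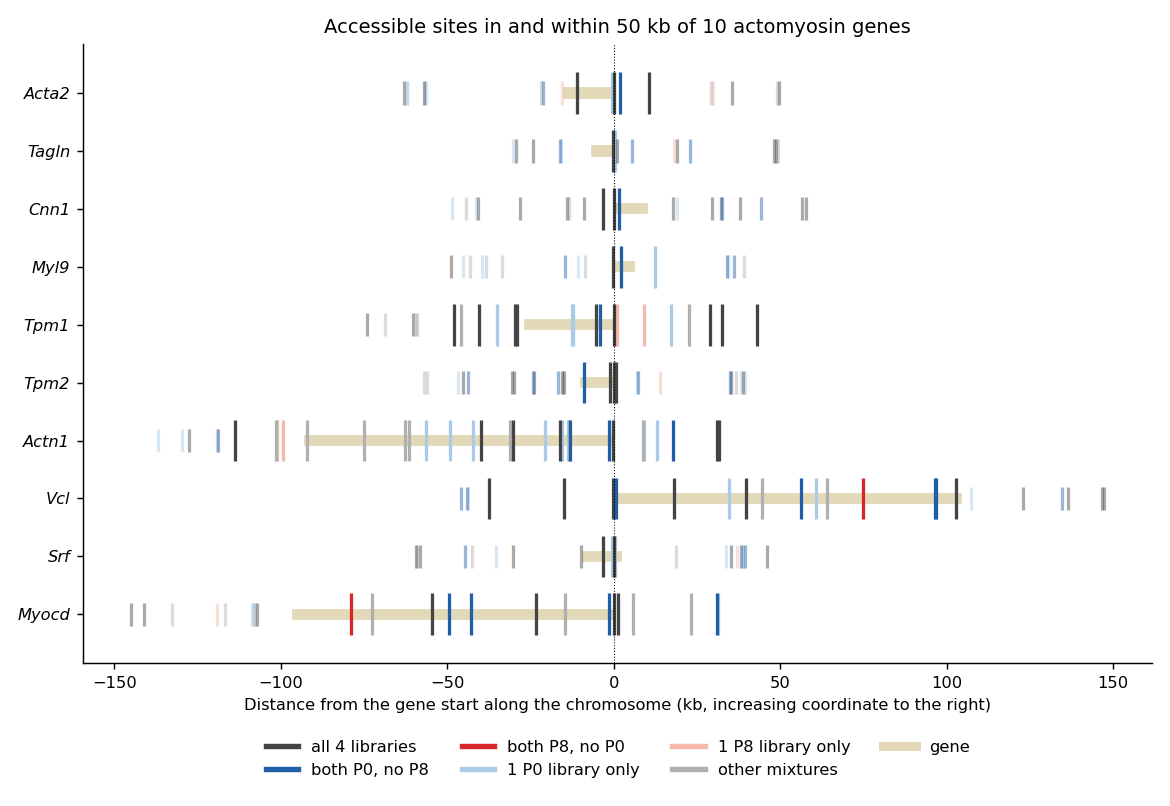
Sites in and within 50 kb of each of the 10 genes, by distance from the gene start along the chromosome in kb (horizontal axis, increasing coordinate to the right; for Tagln and Myocd the gene end with the higher coordinate is at 0), coloured by the libraries that hold a peak, with the gene body in beige. Short pale bars are sites nearer to another gene. Every gene has a site of all 4 libraries at 0, and the only red bars, for a peak in both P8 libraries only, lie in Vcl and Myocd.

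The genes differed in how many peaks surrounded them. Actn1 had the most in P0 library A, with 30 and 16 peaks within 50 kb at P0 and 12 and 22 at P8, and the P8 and P0 ranges overlapped. Myl9 had the fewest at P8, with 15 and 10 peaks at P0 and 3 and 8 at P8. Tpm1 had 21 and 21 at P0 and 21 and 16 at P8. In 6 of the 10 genes (Myl9, Cnn1, Tpm2, Vcl, Srf and Myocd) each P0 library had more peaks than either P8 library, beside 44.9% of all genes, and in 0 of the 10 was it the reverse, beside 3.67%. For Cnn1 the numbers were 20 and 18 against 13 and 14, for Tpm2 25 and 21 against 13 and 15, for Vcl 23 and 19 against 14 and 11, for Srf 17 and 16 against 12 and 12, and for Myocd 22 and 18 against 13 and 15. Acta2, with 18 and 12 against 10 and 12, and Tagln, with 14 and 11 against 12 and 10, overlapped.

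Summed over the 10 genes, there were 205 and 162 peaks at P0 and 123 and 135 at P8, or 183.5 ± 30.4 and 129 ± 8.49 (SD, n = 2 each). The ratio of P0 to P8 was 1.42 with an SD of 0.254 (p = 0.333 by an exact permutation test, two-sided, which is the lowest value that 2 against 2 libraries can give). Over all peaks of the genome the same ratio was 1.41, within the SD of the ratio around these genes. With peaks rescaled to the lowest background of the 4 libraries the ratio was 1.39.

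**Figure D5:**
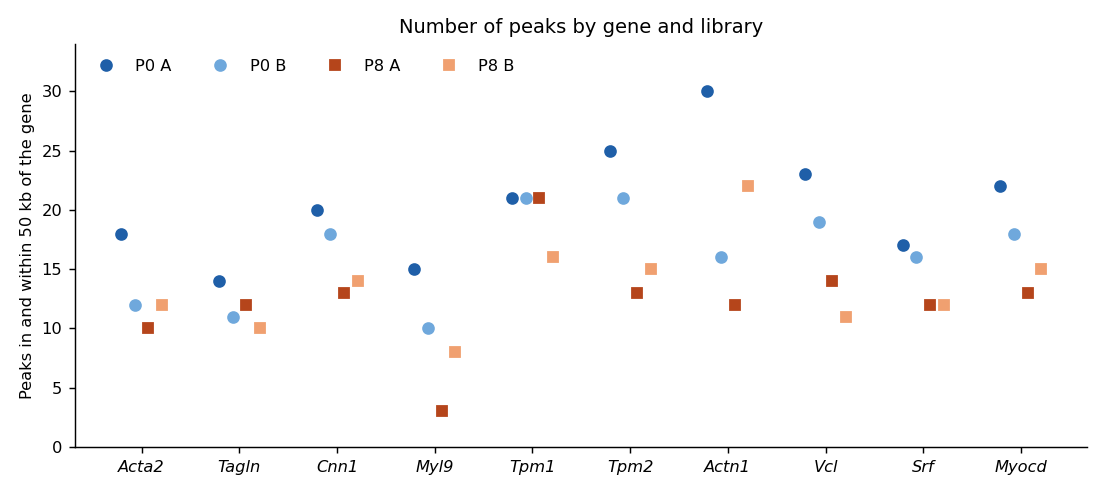
Number of peaks in and within 50 kb of each of the 10 genes (vertical axis), 1 point per library, circles for P0 and squares for P8. Circles lie above squares in Myl9, Cnn1, Tpm2, Vcl, Srf and Myocd, and Tpm1 has 21 peaks in 3 of its 4 libraries.

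A list of 35 other genes of the actomyosin system was set beside them, among them the other actins, myosin chains, caldesmon, talin, paxillin, the SRF cofactors and the RhoA pathway. Of the 884 sites within 50 kb of these genes, 366 (41.4%) were open in all 4 libraries, 125 (14.1%) in both P0 libraries only and 14 (1.58%) in both P8 libraries only, beside the 32.4%, 17.1% and 1.82% of all sites. Without P0 library A the 125 became 198 and without P0 library B 265, and the 14 became 33, 47 and 40 without P0 library A, P8 library A and P8 library B. The windows of the 2 lists shared 21 sites, 9.50% of those of the 10 genes and 2.38% of those of the 35, since Tln1 is a neighbour of Tpm2. Of the 366 sites tested, limma called 10 lower and 19 higher at P8, beside the same 3.76% and 6.23% of all sites. By gene, the largest numbers of sites called at P0 only were those nearest to Palld (palladin, a scaffold of stress fibres), with 12 of its 59 sites, Mrtfb, with 10 of its 46, and Mylk (myosin light chain kinase), with 9 of its 37, which are among the genes with the most sites. Of sites called at P8 only, Myl12b and Mrtfa had 2 each.

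A start peak was called in all 4 libraries for 30 of the 35 genes, beside 59.8% of the genes of the promoter table. Of the 35 genes, 33 and 34 had a start peak in the P0 libraries and 30 in each P8 library. Actg2 (smooth muscle gamma actin), Actc1 (cardiac actin) and Des (desmin, the muscle intermediate filament) had one in both P0 libraries and in neither P8 library. Actg1 (cytoplasmic gamma actin) had one in P0 library B only and Cnn2 in none. Away from the listed starts, sites nearest to these 2 genes were open in all 4 libraries, 3 of 12 for Actg1 and 1 of 1 for Cnn2. Actg2 and Des are also 2 of the 5 smooth muscle markers counted above. The 5 genes without a start peak in all 4 libraries were named after their values were seen. The share of all genes with a start peak in both P0 libraries and in neither P8 library was not counted, and both P8 libraries were the shallower.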

How the data were processed

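ATAC-seq had been performed on 2 libraries of P0 and 2 of P8 mouse chondrocytes. Per the processing notes and the study's methods, paired-end reads had been aligned by the authors with Bowtie2 (mm10), peaks called with MACS2 (default settings, each library alone) and annotated with ChIPseeker, passages compared with DiffBind and motifs searched with HOMER, with versions not given in the sources used here. Per peak, the deposited values are the summit pileup (a signal in tags, not scaled for depth), its fold enrichment, its −log10 p-value and its −log10 q-value. One header cell of each table was lost to a spreadsheet error and was read by the column order of MACS2. A further table of the authors' own fold changes, p-values and FDR was not used. Library names match no replicate label, so libraries were grouped by passage. No column of values per library was left unused.

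The deposited −log10 p equals that of a Poisson distribution of the pileup, to within 0.00019 over 450430 peaks, which gave the background and the depth. Since 1 is added to both terms, fold enrichment is smaller than the plain ratio of pileup to background, and more so where both are low. Peaks on patch sequences (4641, 1.02%) were left out. Sites were placed on gene limits of RefSeq GRCm38.p6, the same build as mm10, and exons and introns were not used here. A start is the one of the promoter table, and for genes without an entry both gene ends were used. A gene has a start peak where one lies within 1 kb of the start, and its start site is the site that covers the start. Numbers of peaks were compared with an exact two-sided permutation test. Fold enrichment was compared with limma 3.58.1 (R 4.3.3, trended variance) on log2 values, tested on simulated data first. The authors compared passages on reads, which were not used here. Python 3.11.15 with numpy 2.4.6, pandas 2.3.3 and scipy 1.17.1 was used.

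All 10 genes were named, with the site at the start, the highest site, those called at 1 passage only (at most 5 per gene) and those with an adjusted p under 0.05, and of the 35 other genes at most 3 per passage with the most sites of 1 passage only. The pileup calls at Acta2, Tagln, Tpm2 and Actn1 were added after their values were seen. So were the second Tpm1 site, the neighbour at Tpm2, the second Actn1 site, and the named sites nearest to Cul9 and Sidt2. The genes and lists were chosen with earlier results of these data known. Other windows, cut-offs, overlaps, scalings and left-out libraries were tried, and the pileup over background without the added 1 was an alternative chosen after seeing the data.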

Additional observations from a re-analysis of the deposited data

How the results depend on the processing

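The ratio of P0 to P8 peaks around the 10 genes stayed between 1.26 and 1.59 in all alternatives run, and all 10 genes kept a start peak in all libraries except with a −log10 q of at least 5, where 8 did. Sites called in both P0 libraries only numbered 19 within 10 kb, 61 within 100 kb and 16 nearest to the gene, and from 44 to 79 with 1 library left out. Those of both P8 libraries only numbered 4 within 100 kb and from 3 to 9 with 1 library left out, and those of all libraries 34 within 10 kb, 136 within 100 kb and 38 nearest to the gene. For the 35 other genes, 10 kb gave 80, 7 and 212 sites of these 3 kinds, a −log10 q of at least 5 gave 8 of both P8 libraries only, and leaving out 1 library gave from 144 to 265 of both P0 libraries only and from 14 to 47 of both P8 libraries only.

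Within 50 kb of the 10 genes, neighbours included, limma called 2 sites lower and 6 higher at P8. Without centring these were 7 and 0, on the pileup 1 and 15, with quantile normalization 2 and 1, above the median fold enrichment 2 and 3, and on the pileup over background without the added 1 there were 3 and 2, centred or not. Leaving out 1 library gave from 0 to 2 lower and from 0 to 7 higher. Over all sites the share of calls that were lower was 37.6%, against 91.7% without centring, 56.1% with quantile normalization, 60.5% above the median fold enrichment, and 48.1% and 63.8% on the plain ratio with and without centring; 2079 and 3447 sites were called in the fit reported, 6516 and 589 without centring, and 55 and 134 without P0 library B. The split of calls into lower and higher therefore depends on the scaling, and the cause was not tested. Leaving out a library leaves 1 in its passage, which is assumed to vary like the others. None of the 3 sites called nearest to the 10 genes changed direction, and 3 CArG promoters were found in the shorter window too.

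No paired analysis was possible because the peak names carry no replicate number. The P8 libraries were the shallower. At matched depth the ratio of peaks was 1.39 and sites of both P0 libraries only numbered 35. Heights under the calling threshold are not listed.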
